A study of Mus musculus with 13 samples.

Results

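Among 9 basal cell carcinomas induced in mice, the 4 tumors with the highest level of Igf2, the gene of insulin-like growth factor 2, were set against the 4 with the lowest. These 8 tumors came from 6 mice and are part of a series of 13 tumors. They were chosen by their Igf2 level in CPM, the count of a gene per 1e6 counts of the tumor, and the tumor in the middle of the order, GEM9, was left out. The Igf2-high and Igf2-low groups were thus cut from the data and are not groups of the study, so that every p-value below concerns the rank of a tumor by Igf2 and no treatment.

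The 9 tumors of the genetically engineered model, called GEM-BCC, grew in 7 female Ptch1+/- K14-CreER2 p53fl/fl mice, whose Cre the study calls CreERT2. All of these mice lacked 1 copy of Ptch1, the receptor that holds the Hedgehog pathway in check, and carried p53 alleles that Cre can delete in cells with an active keratin 14 promoter. Tumors were induced with 3 intraperitoneal injections of 300 µg tamoxifen, which switches the Cre on, and 4 Gy of X-ray, and they grew in the dermis. GEM2 (Igf2-low) and GEM3 (Igf2-high) came from 1 mouse, as did GEM7 (Igf2-low) and GEM8 (Igf2-high), and each other GEM-BCC tumor from a mouse of its own. The other 4 tumors of the series, called Tp-BCC, grew from 2000000 cells of a line that descends from 1 GEM-BCC tumor, injected under the skin of the flank of Ptch1+/-p53fl/fl mice. They belong to another batch and are given here as levels only, without a test. The mice of both models carry the floxed p53 alleles, and the genotype of the Tp-BCC hosts holds no Cre. Whether p53 was deleted in a tumor was not measured here. The series holds no tumor from mice without floxed p53 alleles.

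Igf2 is a growth factor of the fetus that most tissues silence after birth. It is imprinted, with transcription mainly from the paternal chromosome, and its gene lies beside the imprinted H19 on chromosome 7. The protein signals through the receptors Igf1r and Insr, is taken up and degraded through Igf2r and is held in the tissue by the Igfbp binding proteins. In tumors of mice with a Ptch1 mutation Igf2 is known as a gene that rises with Hedgehog signaling.

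Transcription of Igf2 can begin at several sites, and a count per gene adds them up. RefSeq (GRCm38.p6) lists 4 starts, all on the minus strand of chromosome 7. The window of the fourth, from 250 bases before to 50 bases after the start (chr7:142657447-142657746), is shown because it was the 1 of the 4 with a match to the motif searched for Sp factors. Capitals mark that match, GGGGCGGGG, which 11.4% of 32851 promoter windows of the same length held on either strand. The Gli motif GACCACCCA, held by 0.253% of all windows, and the letters TATAAA, held by 13.6%, had no match in the 4 Igf2 windows.
Igf2 start 4: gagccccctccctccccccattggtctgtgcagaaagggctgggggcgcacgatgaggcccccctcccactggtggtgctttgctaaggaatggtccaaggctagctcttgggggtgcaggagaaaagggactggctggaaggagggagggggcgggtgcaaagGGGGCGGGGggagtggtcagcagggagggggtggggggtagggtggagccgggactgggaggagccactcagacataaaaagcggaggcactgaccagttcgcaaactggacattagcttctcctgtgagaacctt
A microRNA, miR-483, is cut from an intron of Igf2. Both of its mature forms (chr7:142654968-142654989 for the 5p and chr7:142654932-142654952 for the 3p form, minus strand) are shown with the seed, bases 2 to 8, in capitals, because their host gene divides the tumors. Short RNA was not sequenced in these libraries.
miR-483-5p: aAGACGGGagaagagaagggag
miR-483-3p: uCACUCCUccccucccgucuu

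Igf2 reached 1061 CPM in GEM3, 665 in GEM1, 529 in GEM8 and 329.9 in GEM5. It was 177.6 CPM in GEM9, the tumor left out, and 56.7 in GEM4, 26.2 in GEM6, 6.82 in GEM7 and 1.89 in GEM2. The group means were 646 ± 309 and 22.9 ± 24.8 CPM (SD, n = 4 each), a ratio of 28.2, and the lowest Igf2-high tumor exceeded the highest Igf2-low tumor 5.82-fold. These levels chose the groups and are given as a description. GEM5 and GEM4 were the tumors just inside the groups, and GEM9 lay between them. The Tp-BCC tumors had 1.88 to 5.12 CPM, at and just above the level of GEM2 and below GEM7. Both ends of the order came from 1 mouse, in which GEM3 had 562 times the Igf2 level of GEM2, and in the other mouse with a pair GEM8 had 77.5 times the level of GEM7. Even in GEM2 the level rests on 53 counts of 28075317, with an exact 95% binomial interval of 1.41 to 2.47 CPM that covers counting error only.

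**Figure D1:**
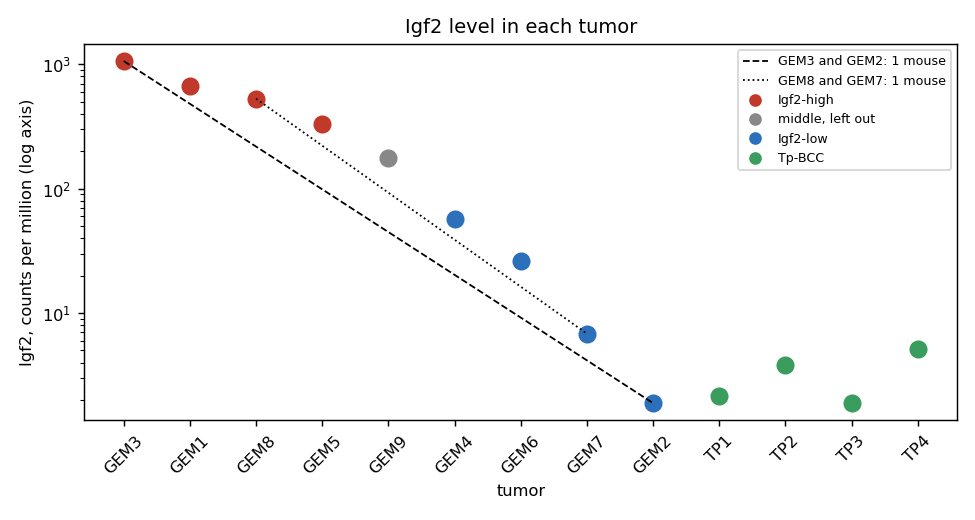
Igf2 in CPM (log axis) in each of the 13 tumors, with 1 point per tumor and lines that join the tumors of 1 mouse. The level falls from 1061 CPM in GEM3 to 1.89 CPM in GEM2 within 1 mouse, and the 4 Tp-BCC tumors lie between 1.88 and 5.12 CPM.

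Total counts were 31341353 to 32629102 in the Igf2-high and 28075317 to 32566392 in the Igf2-low tumors, all of 1 batch. Markers of basal keratinocytes were present throughout, with 5173 to 10377 CPM of Krt5, 1316 to 4292 of Krt14 and 302 to 849.6 of Trp63 over the 8 tumors. Trp53, the gene targeted by the Cre, had, in falling order of Igf2, 46.3, 51.6, 39.2 and 57.5 CPM in the Igf2-high and 30.5, 63.3, 32.7 and 40.0 CPM in the Igf2-low tumors (log2 fold change 0.24, adjusted p = 0.841), and the table does not show which exons these reads cover. GEM1 stood apart in how its levels followed the GC content of transcripts (Spearman rho 0.487 across genes, against −0.208 to 0.0425 in the other GEM-BCC tumors). On the first principal component, which held 41.7% of the variance of 500 genes, GEM1, GEM3 and GEM8 had scores of −28.6, −46.5 and −33.1 and all other GEM-BCC tumors, GEM5 among them, scores above 0.

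No gene passed the adjusted p-value in the comparison. Of 14160 genes tested with edgeR's quasi-likelihood test, 0 had an adjusted p under 0.05 (0% of the genes tested), and the smallest adjusted p was 0.289. At an unadjusted p under 0.05 there were 1219 genes (8.61%), of which 587 were higher (4.15%) and 632 lower (4.46%) in the Igf2-high tumors. The levels of 651 genes (4.6%) did not overlap between the groups, 311 higher (2.2%) and 340 lower (2.4%). DESeq2, run as an alternative, called 142 genes (1%), 73 higher and 69 lower, while limma voom with the mouse as a random effect called 0 genes with 2308 at an unadjusted p under 0.05. The log2 fold change, Igf2-high over Igf2-low, had a median of 0.02 over all genes, and where a gene is said below to differ by a number, that number is its log2 fold change. Genes are therefore described below by their values, their SE and edgeR's adjusted p, by which none is called, and DESeq2's adjusted p stands beside it for the genes given in full that DESeq2 called. Only 2 mice gave a tumor to both groups, and a fit of these 4 tumors with the mouse as a replicate block, which has 1 residual degree of freedom and was added once the data were known, called 196 genes, 50 higher and 146 lower. In whole tumors, fewer cells of a type and less RNA per cell cannot be told apart.

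The genes that separated the groups best are named by rule, as the 10 higher and the 10 lower genes of smallest p whose log2 CPM averaged 3 or more and whose groups did not overlap. In what follows a gene's values are given in falling order of Igf2, so that the Igf2-high values are those of GEM3, GEM1, GEM8 and GEM5 and the Igf2-low values those of GEM4, GEM6, GEM7 and GEM2. Trf, which encodes the iron carrier transferrin, had 89.5, 169, 106 and 46.5 CPM in the Igf2-high and 25.3, 25.8, 25.4 and 17.99 CPM in the Igf2-low tumors. Its log2 fold change was 2.16 (SE 0.36, edgeR adjusted p = 0.289, DESeq2 adjusted p = 1.3e-05). Each Igf2-high tumor thus lay above the Igf2-low tumors, with GEM5 the nearest to them. Spata13, a guanine nucleotide exchange factor, had 76.1, 180.4, 114 and 65.2 CPM in the Igf2-high and 30.04, 25.3, 33.9 and 17.99 CPM in the Igf2-low tumors (log2 fold change 2.05, SE 0.34, adjusted p = 0.289, DESeq2 adjusted p = 1.92e-05). Twist1, a transcription factor of mesenchyme, had 29.97, 26.4, 42.8 and 40.3 CPM in the Igf2-high and 14.6, 11.3, 13.1 and 16.8 CPM in the Igf2-low tumors (log2 fold change 1.34, SE 0.22, adjusted p = 0.289, DESeq2 adjusted p = 5.93e-05). The lowest Igf2-high tumor was GEM5 for Spata13 and GEM1 for Twist1.

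Mest, like Igf2 an imprinted gene expressed from the paternal chromosome, had 27.3, 29.8, 22.4 and 29.8 CPM in the Igf2-high and 7.13, 9.43, 14.9 and 10.6 CPM in the Igf2-low tumors (log2 fold change 1.41, SE 0.25, adjusted p = 0.289, DESeq2 adjusted p = 0.000206). Its Igf2-high values lay close together, while GEM7 was the highest of the Igf2-low tumors. Trp53i11, a gene induced by p53, had 146, 149, 103 and 81.7 CPM in the Igf2-high and 46.7, 33.2, 39.1 and 50.2 CPM in the Igf2-low tumors (log2 fold change 1.54, SE 0.26, adjusted p = 0.289, DESeq2 adjusted p = 0.000146). Mfap5, a component of the microfibrils of the matrix, had 24.2, 24.2, 18.3 and 60.5 CPM in the Igf2-high and 3.53, 12.04, 5.94 and 4.13 CPM in the Igf2-low tumors (log2 fold change 2.31, SE 0.48, adjusted p = 0.438, DESeq2 adjusted p = 0.000615), with GEM5 and GEM6 as the highest tumors of their groups. Fmo2, a flavin-containing monooxygenase, had the highest fold change of the 10, with 25.1, 17.0, 10.5 and 29.97 CPM in the Igf2-high and 2.99, 7.40, 2.84 and 2.10 CPM in the Igf2-low tumors (log2 fold change 2.44, SE 0.48, adjusted p = 0.395, DESeq2 adjusted p = 0.000149). The remaining genes were Susd2, Gsr (glutathione reductase) and Cpne5, with log2 fold changes of 1.31, 1.20 and 1.53. In both mice with a pair, the Igf2-high tumor had more of all 10 genes than the Igf2-low tumor. These pairs are part of the comparison and no separate evidence.

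Among the 10 lower genes, Ecel1, a membrane protease of the endothelin-converting family, had the lowest fold change, with 14.9, 19.4, 6.86 and 30.5 CPM in the Igf2-high and 87.1, 113, 70.2 and 332 CPM in the Igf2-low tumors (log2 fold change −3.07, SE 0.59, adjusted p = 0.395, DESeq2 adjusted p = 1.3e-05). GEM9, at 153 CPM, lay within the Igf2-low range. Tgfbi, a matrix protein induced by TGF-β, had 21.8, 88.4, 63.0 and 67.6 CPM in the Igf2-high and 395, 128, 268 and 207 CPM in the Igf2-low tumors (log2 fold change −2.04, SE 0.44, adjusted p = 0.465, DESeq2 adjusted p = 0.00176). Tap1, which carries peptides to MHC class I molecules, had 58.6, 73.8, 54.2 and 95.1 CPM in the Igf2-high and 164, 124, 151 and 149 CPM in the Igf2-low tumors (log2 fold change −1.04, SE 0.21, adjusted p = 0.395, DESeq2 adjusted p = 0.00317), and H2-T22, a class Ib molecule, had a log2 fold change of −0.997 (adjusted p = 0.395). The other genes of antigen presentation are described with that list.

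Smpdl3b, a sphingomyelinase-like protein, had 34.2, 30.1, 36.2 and 35.4 CPM in the Igf2-high and 64.5, 77.1, 77.5 and 53.1 CPM in the Igf2-low tumors (log2 fold change −0.98, SE 0.18, adjusted p = 0.315, DESeq2 adjusted p = 0.000681). Slc31a2, related to copper transporters, Angptl7, a secreted angiopoietin-like protein, and Alad, an enzyme of heme synthesis, had log2 fold changes of −1.42, −1.91 and −0.94 with adjusted p-values of 0.395, 0.438 and 0.465. These 3 and Smpdl3b, 4 of the 10, are on chromosome 4, which is described below. Slc35g1 and Dnaja4, a co-chaperone, had log2 fold changes of −1.05 and −1.13. DESeq2 called all 20 higher and lower genes named by this rule, with adjusted p-values from 1.3e-05 to 0.00908. Without GEM5, edgeR called Trf (adjusted p = 0.0259) and Spata13, Trp53i11 and Slc31a2 (adjusted p = 0.0407 each). With the replicate block, adjusted p was 0.00833 for Trf, 0.0143 for Spata13, 0.0389 for Trp53i11, 0.0377 for Mfap5 and 0.0378 for Fmo2, and 0.003 for Ecel1, 0.00487 for Angptl7, 0.0135 for Tgfbi and 0.0195 for Slc31a2. The other 11 did not pass in either fit. GEM9, which was not used to choose these genes, lay in the range of neither group for 5 of the 10 higher and 3 of the 10 lower genes. It lay in the Igf2-high range for 3 higher and 4 lower genes and in the Igf2-low range for 2 higher and 3 lower genes. The Tp-BCC tumors, at the low end of Igf2, lay on the Igf2-high side of 12 of these 20 genes, on the Igf2-low side of 2 and on neither side of 6. On a side means that all 4 lay at or beyond the edge of that group that faces the other, however far. They had 384 to 662 CPM of Trf, 49.8 to 63.1 of Twist1, 47.6 to 119 of Mest, 5.90 to 14.5 of Ecel1 and 12.3 to 18.2 of Tgfbi. Levels were 0.114 to 0.455 CPM of Fmo2 and 3.77 to 10.02 of Mfap5, the 2 on the Igf2-low side. The share of such genes among all genes was not computed, and model and batch cannot be told apart in these levels.

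**Figure D2:**
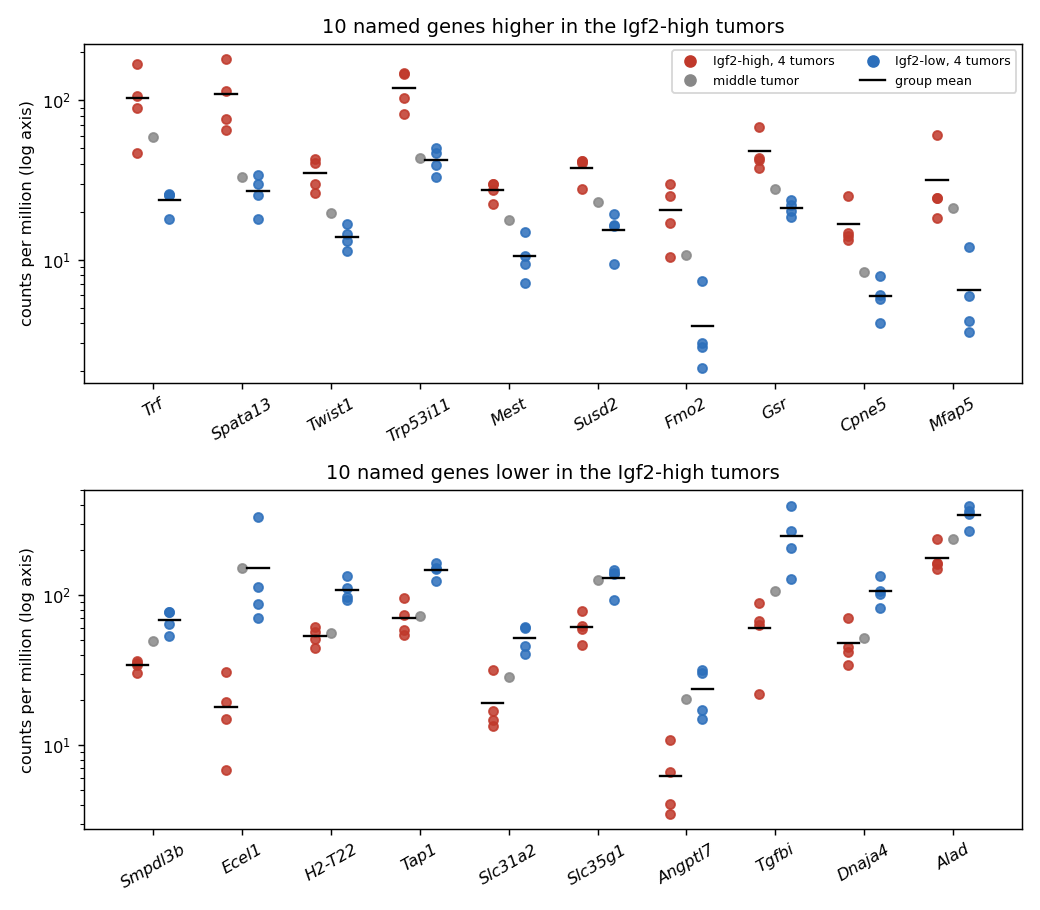
CPM (log axis) of the 10 higher and 10 lower genes named by rule, with 1 point per tumor, a line at each group mean (n = 4) and GEM9 in grey. The groups do not overlap because the rule required it, and no gene passed the adjusted p-value in edgeR.

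The genes that followed Igf2 most closely over the 9 GEM-BCC tumors were named by the Pearson correlation of log2 CPM among genes at the same minimum level. The tumors come from 7 mice, and these r are the extremes of all genes, so they carry no p. The highest r belonged to Samhd1, which degrades deoxynucleotides (0.95), Tie1, a receptor of endothelium (0.94), Susd2 (0.94), Spry4, an inhibitor of growth factor signaling (0.93), and Rasgrp2, an activator of Rap (0.93). The lowest belonged to Pars2 (−0.96), Pabpc4 (−0.93), Nfatc1 (−0.93), H2aw (−0.93) and Elac1 (−0.92). Pars2 and Pabpc4, 40% of these 5, are on chromosome 4, which holds 6.46% of the genes tested and is described below. Tie1 is on it as well. Samhd1 had 57.3, 61.9, 55.3 and 62.3 CPM in the Igf2-high and 49.4, 44.1, 47.0 and 39.3 CPM in the Igf2-low tumors, a narrow range without overlap. Nfatc1, a transcription factor of resting hair follicle stem cells, had 14.8, 21.9, 22.2 and 37.8 CPM in the Igf2-high and 39.4, 32.9, 106 and 145 CPM in the Igf2-low tumors (log2 fold change −1.73, SE 0.47, adjusted p = 0.472, DESeq2 adjusted p = 0.026). Its highest levels were in GEM7 and GEM2, the tumors with the least Igf2, and GEM5 overlapped with GEM6. With the replicate block Nfatc1 (adjusted p = 0.00781) and Rasgrp2 (adjusted p = 0.0143) were called.

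Genes beside Igf2 on chromosome 7 were mostly higher in the Igf2-high tumors. H19 and the antisense Igf2os were not analysed here, and Ins2, the neighbour that encodes insulin, has no value in the GEM-BCC tumors. Of a list of 32 genes of the locus without Igf2, 26 had a value and 25 were tested, with a median log2 fold change of 0.35 against 0.02 over all genes, 19 higher and 6 lower. At an unadjusted p under 0.05 there were 5 higher genes (20% of those tested, against 8.61% of all genes) and 0 lower. These 5 did not overlap between the groups (2.2% of all genes in this direction). With at least 10 counts required in all 8 tumors, 21 genes of the list were tested, 16 higher and 5 lower. Their median was 0.33, and 3 higher genes had an unadjusted p under 0.05. In order along the chromosome (RefSeq, GRCm38.p6), 13 protein-coding genes within 0.5 Mb on either side of Igf2 were tested. All 13 were higher, by 0.20 (Ctsd) to 3.24 (Trpm5) and with a median of 0.60. Trpm5 and Tnni2 are among these 13 and among the 5 without overlap. They passed the minimum count only through the Igf2-high tumors, so nothing is read from their direction or separation. The largest difference beside Trpm5 was 2.38 (Th). The median was 0.44 within 1 Mb (20 of 25 genes higher) and 0.20 within 2 Mb (58 of 76 higher). Left out 1 at a time, the tumors moved the median within 1 Mb between 0.21 (without GEM3) and 0.57 (without GEM6).

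The 5 genes of the locus with an unadjusted p under 0.05 were chosen for description after their values were seen, as were all genes below that no rule named. Trpm5, a cation channel of taste cells, had 3.43, 9.00, 1.11 and 0.758 CPM in the Igf2-high and 0.269, 0.491, 0.507 and 0.285 CPM in the Igf2-low tumors (log2 fold change 3.24, SE 0.81, adjusted p = 0.472, DESeq2 adjusted p = 0.00863). Th, the tyrosine hydroxylase of catecholamine synthesis, had 12.5, 33.02, 7.87 and 12.1 CPM in the Igf2-high and 1.31, 7.46, 3.55 and 0.534 CPM in the Igf2-low tumors (log2 fold change 2.38, SE 0.75, adjusted p = 0.504, DESeq2 adjusted p = 0.0423). GEM1 was the highest tumor for both, although GEM3 had more Igf2. Syt8, a synaptotagmin, had 3.43, 2.27, 3.32 and 1.14 CPM in the Igf2-high and 0.807, 0.952, 0.844 and 0.641 CPM in the Igf2-low tumors (log2 fold change 1.68, SE 0.48, adjusted p = 0.474), and Tnni2, a fast-muscle troponin, stayed below 1 CPM in every tumor. Tssc4, the best expressed of the 5, had a log2 fold change of 0.50 (adjusted p = 0.549). Trpm5 and Tnni2 passed the minimum count only through the Igf2-high tumors, where they were higher, so nothing is read from how they separate the groups.

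The 6 best-expressed genes of the locus had smaller differences. Ctsd, the lysosomal protease cathepsin D, differed by 0.20 (SE 0.27, adjusted p = 0.883), Cd81, a tetraspanin, by 0.35 (adjusted p = 0.652) and Mrpl23, of the mitochondrial ribosome, by 0.48 (adjusted p = 0.689). Nap1l4 (−0.05), Osbpl5 (−0.26) and Dhcr7 (0.04) had adjusted p-values of 0.964, 0.778 and 0.988. Of the imprinted genes of the next domain, Cdkn1c, a cell cycle inhibitor, had 61.5, 9.60, 9.33 and 31.9 CPM in the Igf2-high and 10.8, 20.6, 15.3 and 16.9 CPM in the Igf2-low tumors (log2 fold change 0.87, SE 0.57, adjusted p = 0.722), with GEM3 highest and GEM5 next. Ascl2 (0.60), Kcnq1 (0.60) and Phlda2 (−0.52) overlapped between the groups.

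Of the ligands, receptors and binding proteins of the Igf system, 17 of 22 listed genes were tested. Their median log2 fold change was 0.32, 11 were higher and 6 lower, and 1 in each direction had an unadjusted p under 0.05 (11.8% of those tested, against 8.61% of all genes). The receptors overlapped between the groups. Igf1r, which carries the growth signal, had 99.9, 129, 222 and 109 CPM in the Igf2-high and 185, 139, 197 and 141 CPM in the Igf2-low tumors (log2 fold change −0.22, SE 0.27, adjusted p = 0.866), and Igf2r, which removes Igf2, had 87.4, 251, 214 and 118 CPM in the Igf2-high and 185, 102, 131 and 86.3 CPM in the Igf2-low tumors (log2 fold change 0.43, SE 0.36, adjusted p = 0.783). Insr differed by −0.12 and the ligand Igf1 by 0.05 (adjusted p = 0.914 and 0.98).

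Among binding proteins, Igfbp4 had 2656, 2851, 1904 and 2869 CPM in the Igf2-high and 981, 2756, 1155 and 1916 CPM in the Igf2-low tumors (log2 fold change 0.61, SE 0.35, adjusted p = 0.689). GEM6, an Igf2-low tumor, lay within the Igf2-high range. Igfbp7 differed by 0.55, Igfbp3 by −0.14 and Htra1, a protease that cleaves binding proteins, by 0.07, with adjusted p-values of 0.734, 0.965 and 0.976. Igfbp2 and Igfbp5 differed by 0.59 and 0.32 with SE of 0.62 and 0.52. Pappa, the protease that frees Igf from Igfbp4, had 3.68, 22.05, 34.2 and 24.1 CPM in the Igf2-high and 52.1, 18.9, 88.8 and 76.9 CPM in the Igf2-low tumors (log2 fold change −1.48, SE 0.60, adjusted p = 0.553), and Stc1, an inhibitor of Pappa, had 8.86, 6.29, 8.88 and 6.57 CPM in the Igf2-high and 4.24, 5.40, 4.19 and 4.70 CPM in the Igf2-low tumors (log2 fold change 0.75, SE 0.29, adjusted p = 0.533).

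Downstream of the receptors, 37 of 38 listed genes of insulin and Igf signaling were tested, with a median of 0.02, 5 higher and 1 lower at an unadjusted p under 0.05. Irs1, an adaptor of the receptors and among the best expressed, differed by −0.17. The 5 higher genes were Dusp6, Spry4, Spry2, Grb10 and Hras (16.2% of the list with the lower gene, against 8.61% of all genes). Dusp6, a phosphatase, had 89.9, 80.6, 114 and 184 CPM in the Igf2-high and 47.9, 78.6, 49.5 and 29.5 CPM in the Igf2-low tumors (log2 fold change 1.20, SE 0.33, adjusted p = 0.472, DESeq2 adjusted p = 0.0467) and was called with the replicate block (adjusted p = 0.0493), while Spry4 differed by 1.05 (adjusted p = 0.465) and Spry2 by 0.61 (adjusted p = 0.549). Grb10, an imprinted inhibitor of the Igf and insulin receptors, had 98.4, 146, 110.0 and 165 CPM in the Igf2-high and 73.6, 84.2, 70.5 and 72.7 CPM in the Igf2-low tumors (log2 fold change 0.80, SE 0.20, adjusted p = 0.465, DESeq2 adjusted p = 0.026). The lower gene was Mtor (log2 fold change −0.75, SE 0.25, adjusted p = 0.511), which is on chromosome 4.

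Of factors that bind Igf2 RNA or its gene, 14 of 18 were tested, with a median of 0.23. Igf2bp1, a fetal RNA-binding protein, had 1.35, 1.37, 1.296 and 1.89 CPM in the Igf2-high and 1.21, 0.399, 0.507 and 0.356 CPM in the Igf2-low tumors (log2 fold change 1.27, SE 0.51, adjusted p = 0.554), values near the lower limit of the counts used. Igf2bp2 differed by −0.59 (SE 0.90), Plagl1, an imprinted activator of Igf2, by 0.27 (SE 0.85) and Ctcf, which insulates Igf2 from its enhancers, by −0.04 (SE 0.19). The best expressed, Trim28 and Dnmt3a, differed by 0.28 and 0.04.

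Imprinted genes of other loci were mostly higher but did not share 1 direction. Of 53 listed genes 34 were tested, 23 higher and 11 lower, with a median of 0.28. At an unadjusted p under 0.05, 5 were higher and 3 lower (23.5%, against 8.61% of all genes). Free of overlap between the groups were 4 higher and 0 lower genes (2.2% and 2.4% of all genes). This list also holds Th, of the Igf2 locus, which is 1 of these 4. Peg3 had 2.42, 16.7, 15.1 and 15.9 CPM in the Igf2-high and 105, 12.8, 37.2 and 19.5 CPM in the Igf2-low tumors (log2 fold change −1.80, SE 0.71, adjusted p = 0.546), and Slc38a4, an amino acid transporter, had 31.8, 16.3, 19.8 and 13.7 CPM in the Igf2-high and 126, 12.4, 74.3 and 176 CPM in the Igf2-low tumors (log2 fold change −2.22, SE 0.64, adjusted p = 0.474, DESeq2 adjusted p = 0.0208). GEM6 was unlike the other Igf2-low tumors in both, within the Igf2-high range for Peg3 and just below it for Slc38a4, which was called with the replicate block (adjusted p = 0.0135). Ndn was higher by 1.09 (SE 0.48, adjusted p = 0.569) and Peg10 by 0.79 (SE 0.58, adjusted p = 0.746). The best expressed, Gnas and Dcn, differed by 0.29 and 0.56 (adjusted p = 0.773 and 0.778).

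Endothelial markers were higher throughout. All 22 markers were tested and all 22 were higher in the Igf2-high tumors, with a median log2 fold change of 0.92 against 0.02 over all genes. Of these, 16 had an unadjusted p under 0.05 (72.7%, against 4.15% of all genes in this direction) and 12 did not overlap between the groups (2.2% of all genes in this direction). DESeq2 called 7 of the 22 (against 0.516% of all genes in this direction) and edgeR 0. Lyve1 and Prox1 passed the minimum count only through the Igf2-high tumors, so nothing is read from their part in these counts. Both are among the 16, and Lyve1 is also among the 12 and the 7. Their summed level was 598 to 797 CPM in the Igf2-high and 357 to 590.2 CPM in the Igf2-low tumors, so that the lowest Igf2-high and the highest Igf2-low tumor nearly met, and no marker was at 0. Leaving out single tumors gave medians of 0.80 (without GEM2) to 1.17 (without GEM6), and removing each tumor's GC trend, an alternative chosen once the data were known, gave 0.88. All 22 were higher in each of these fits.

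Among the markers of blood vessels, Cldn5, a tight junction protein, had 19.7, 10.8, 9.29 and 14.3 CPM in the Igf2-high and 4.71, 6.29, 4.32 and 5.52 CPM in the Igf2-low tumors (log2 fold change 1.41, SE 0.32, adjusted p = 0.465, DESeq2 adjusted p = 0.00748). The angiopoietin-pathway receptor Tie1 had 29.1, 27.3, 26.2 and 27.1 CPM in the Igf2-high and 13.9, 19.4, 13.1 and 11.1 CPM in the Igf2-low tumors (log2 fold change 0.95, SE 0.22, adjusted p = 0.465, DESeq2 adjusted p = 0.0156). Robo4 had 16.7, 11.3, 21.1 and 21.3 CPM in the Igf2-high and 6.59, 10.1, 8.00 and 6.45 CPM in the Igf2-low tumors (log2 fold change 1.19, SE 0.28, adjusted p = 0.465, DESeq2 adjusted p = 0.00863). In these 3 genes every Igf2-high tumor lay above every Igf2-low tumor, and GEM6 was the nearest Igf2-low tumor. Erg, a transcription factor of endothelium, differed by 1.60 and Egfl7, a secreted endothelial factor, by 0.83 (adjusted p = 0.465 and 0.465). The defining genes Cdh5, Pecam1 and Kdr differed by 0.62, 0.62 and 0.84 with SE of 0.19, 0.27 and 0.29, and the best expressed, Sox18 and Eng, by 0.28 and 0.63.

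Of markers of lymphatic vessels, the receptor of lymphatic growth factors, Flt4, had 9.99, 10.98, 12.3 and 5.02 CPM in the Igf2-high and 3.90, 3.29, 4.76 and 2.64 CPM in the Igf2-low tumors (log2 fold change 1.43, SE 0.36, adjusted p = 0.472, DESeq2 adjusted p = 0.0188). Lyve1, a hyaluronan receptor, had 5.30, 2.07, 2.28 and 0.916 CPM in the Igf2-high and 0.774, 0.43, 0.439 and 0.107 CPM in the Igf2-low tumors (log2 fold change 2.64, SE 0.72, adjusted p = 0.472, DESeq2 adjusted p = 0.0304), and Prox1, the factor that sets lymphatic identity, differed by 1.76 (SE 0.67, adjusted p = 0.524). Lyve1 and Prox1 passed the minimum count only through the Igf2-high tumors, so nothing is read from their differences. With at least 10 counts required in all 8 tumors, 20 endothelial markers were tested. All 20 were higher, with a median of 0.88, and 14 had an unadjusted p under 0.05. Within the 2 mice that gave a tumor to each group, 21 of the 22 endothelial markers were higher in the Igf2-high tumor of both, with median differences of 1.31 (GEM3 over GEM2) and 0.98 (GEM8 over GEM7). Of all 14160 genes tested, 4435 were higher in both. The pairs are part of the comparison, so this is no separate evidence. In the Tp-BCC tumors, which had little Igf2, their sum was 995 to 1368 CPM, above that of all 8 tumors compared here, a difference in which model and batch cannot be told apart.

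The 20 tested genes of antigen presentation by MHC class I and class II, of 22 listed, were all lower in the Igf2-high tumors. Their median log2 fold change was −0.99, 10 had an unadjusted p under 0.05 (50%, against 4.46% of all genes in this direction) and 9 did not overlap between groups (2.4% of all genes in this direction). The summed level was 470.1 to 1471 CPM in the Igf2-high and 1815 to 2984 CPM in the Igf2-low tumors, without overlap, and no member was at 0. Without GEM5 the median was −1.21, without GEM8 −0.82, and after removal of the GC trend −1.15, and without GEM6 4 of the 20 genes were higher. The Tp-BCC tumors had 949.5 to 1418 CPM, within the Igf2-high range.

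B2m, the light chain shared by class I molecules, had 153, 81.9, 58.0 and 261 CPM in the Igf2-high and 613, 556, 393 and 325 CPM in the Igf2-low tumors (log2 fold change −1.76, SE 0.44, adjusted p = 0.472, DESeq2 adjusted p = 0.00908). The class I gene H2-D1 had 315, 52.6, 24.8 and 363 CPM in the Igf2-high and 738, 1009, 530.0 and 498 CPM in the Igf2-low tumors (log2 fold change −1.86, SE 0.73, adjusted p = 0.547). GEM1 and GEM8 were the lowest tumors for both genes, and GEM3 and GEM5 lay nearer to the Igf2-low tumors. H2-Q4 had 43.0, 11.002, 5.82 and 60.0 CPM in the Igf2-high and 183, 139, 139 and 117 CPM in the Igf2-low tumors (log2 fold change −2.25, SE 0.62, adjusted p = 0.472, DESeq2 adjusted p = 0.0128), H2-Q6 had 24.3, 2.13, 1.52 and 48.3 CPM in the Igf2-high and 142, 148, 106 and 90.1 CPM in the Igf2-low tumors (log2 fold change −2.67, SE 0.91, adjusted p = 0.511), and H2-Q7 differed by −2.91 (SE 0.91, adjusted p = 0.502). The H2-Q and H2-D genes are close copies of each other, so reads may have been divided between them and their single values are uncertain. H2-T23 differed by −1.08 (adjusted p = 0.465).

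Nlrc5, the transcriptional activator of class I genes, had 5.12, 8.52, 2.40 and 26.7 CPM in the Igf2-high and 107, 59.4, 52.1 and 22.05 CPM in the Igf2-low tumors (log2 fold change −2.50, SE 0.70, adjusted p = 0.474, DESeq2 adjusted p = 0.0122). GEM5 lay above GEM2 in this gene. Of the immunoproteasome, Psmb8 had 44.3, 15.5, 12.9 and 37.1 CPM in the Igf2-high and 44.8, 70.9, 45.5 and 68.3 CPM in the Igf2-low tumors (log2 fold change −1.04, SE 0.40, adjusted p = 0.536) and Psmb9 a log2 fold change of −0.98 (adjusted p = 0.645). Tap2 and Tapbp, which load class I molecules beside Tap1, differed by −0.30 and −0.16. For class II the groups overlapped, with log2 fold changes of −0.48 (SE 0.73) for the invariant chain Cd74 and −0.51 (SE 0.67) for H2-Ab1. Among immune cells, which carry MHC genes at high level, macrophage markers had a median of 0.09, 16 higher and 6 lower, but their summed level was 2213 to 2799.8 CPM in the Igf2-high and 2999 to 4871 CPM in the Igf2-low tumors and did not overlap. Most of this sum was Apoe, a lipid carrier that other cells make too, with 2143, 1956, 2010.3 and 2388 CPM in the Igf2-high and 3300.1, 4284, 2761 and 3029.6 CPM in the Igf2-low tumors (log2 fold change −0.64, SE 0.23, adjusted p = 0.518). Of 29 markers of T, NK and B cells 5 were tested, with a median of −0.11, and interferon response genes had a median of 0.24 over 30 genes that became −0.28 without GEM5, with 19 of 29 lower. Their part in the MHC values was not tested.

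Keratinization and cornified envelope genes were lower, but mostly with overlap. Of 42 listed genes 27 were tested, 25 lower and 2 higher, with a median log2 fold change of −1.71. At an unadjusted p under 0.05 there were 13 lower genes (48.1%, against 4.46% of all genes in this direction) and 0 higher, and 1 gene did not overlap between the groups (2.4% of all genes in this direction). The summed level was 105 to 737 CPM in the Igf2-high and 583 to 1480.3 CPM in the Igf2-low tumors, with 1 of the 39 genes with a value, Sprr3, at 0 in all 8 tumors. Left out 1 at a time, the tumors moved the median between −2.65 (without GEM5) and −1.18 (without GEM4). Relative to the middle of the 9 tumors, the median of the list was lowest in GEM3, GEM8 and GEM1 (−1.68, −0.99 and −0.62 on the log2 scale) and highest in GEM4 and GEM7 (1.98 and 1.46), while GEM5 (0.57) lay above GEM6 and GEM2 (0.34 and −0.21). In the mice with a pair, which are part of the comparison, 19 of the 27 genes were lower in the Igf2-high tumor of both, against 4019 of all 14160 genes. With the replicate block 15 of the genes could be tested, with a median of −2.45, and 5 of them were called, all in the lower direction. That fit called 146 lower genes among all 13154 it tested.

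Tgm5, a transglutaminase of the cornified envelope, was the gene without overlap, with 0.0306, 0.223, 1.04 and 3.09 CPM in the Igf2-high and 6.39, 3.75, 36.6 and 29.5 CPM in the Igf2-low tumors (log2 fold change −4.12, SE 1.12, adjusted p = 0.472). Tgm5 passed the minimum count only through the Igf2-low tumors, so nothing is read from this separation. With at least 10 counts required in all 8 tumors, 15 genes of the list were tested. Of these, 14 were lower and 1 higher, and 7 lower genes had an unadjusted p under 0.05. Krt10, a keratin of differentiating epidermis, had 13.9, 20.7, 7.97 and 55.1 CPM in the Igf2-high and 153, 25.4, 100.3 and 42.8 CPM in the Igf2-low tumors (log2 fold change −1.71, SE 0.65, adjusted p = 0.524), and GEM5 lay above GEM6 and GEM2. Asprv1, a protease of the upper epidermis, had 8.89, 7.56, 12.9 and 42.6 CPM in the Igf2-high and 108, 19.9, 88.9 and 87.3 CPM in the Igf2-low tumors (log2 fold change −2.09, SE 0.62, adjusted p = 0.474, DESeq2 adjusted p = 0.0264). The best-expressed members, Sbsn and Dmkn, 2 secreted proteins of the epidermis, differed by −1.22 and −1.60 (adjusted p = 0.556 and 0.474). Krt1 had no more than 2.87 CPM except in GEM7, where it reached 38.3. Scel had 0.858, 2.78, 1.96 and 58.3 CPM in the Igf2-high and 36.8, 46.8, 127 and 229 CPM in the Igf2-low tumors (log2 fold change −2.82, SE 1.21, adjusted p = 0.568), and its level in GEM5 lay within the Igf2-low range. Without GEM5 Scel passed edgeR's threshold (adjusted p = 0.0407), and with the replicate block Asprv1 (0.00311), Scel (0.00311) and Sbsn (0.0312) did, the values in parentheses being adjusted p.

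Of keratins of basal cells and of the follicle, Krt5 differed by −0.16 (SE 0.29), Krt17 by 0.17 (SE 0.23), Krt14 by −0.59 (SE 0.30) and Krt15 by −0.47 (SE 0.52), none with an adjusted p under 0.639. Trp63, the master regulator of stratified epithelium, had 302, 412, 466 and 460.1 CPM in the Igf2-high and 849.6, 402, 813 and 557 CPM in the Igf2-low tumors (log2 fold change −0.66, SE 0.27, adjusted p = 0.554). Hair follicle genes had a median of −0.31 over 27 genes and sebaceous gland genes of −0.25 over 11, and their best-expressed members, Postn (−0.76), Lhx2 (−0.33), Fads2 (0.82) and Krt79 (−1.04), had adjusted p-values of 0.735, 0.871, 0.704 and 0.823. Without GEM5 the sebaceous median was −0.81, and with the replicate block Krt79 (adjusted p = 0.00238) and Fads2 (adjusted p = 0.0356) were called.

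**Figure D3:**
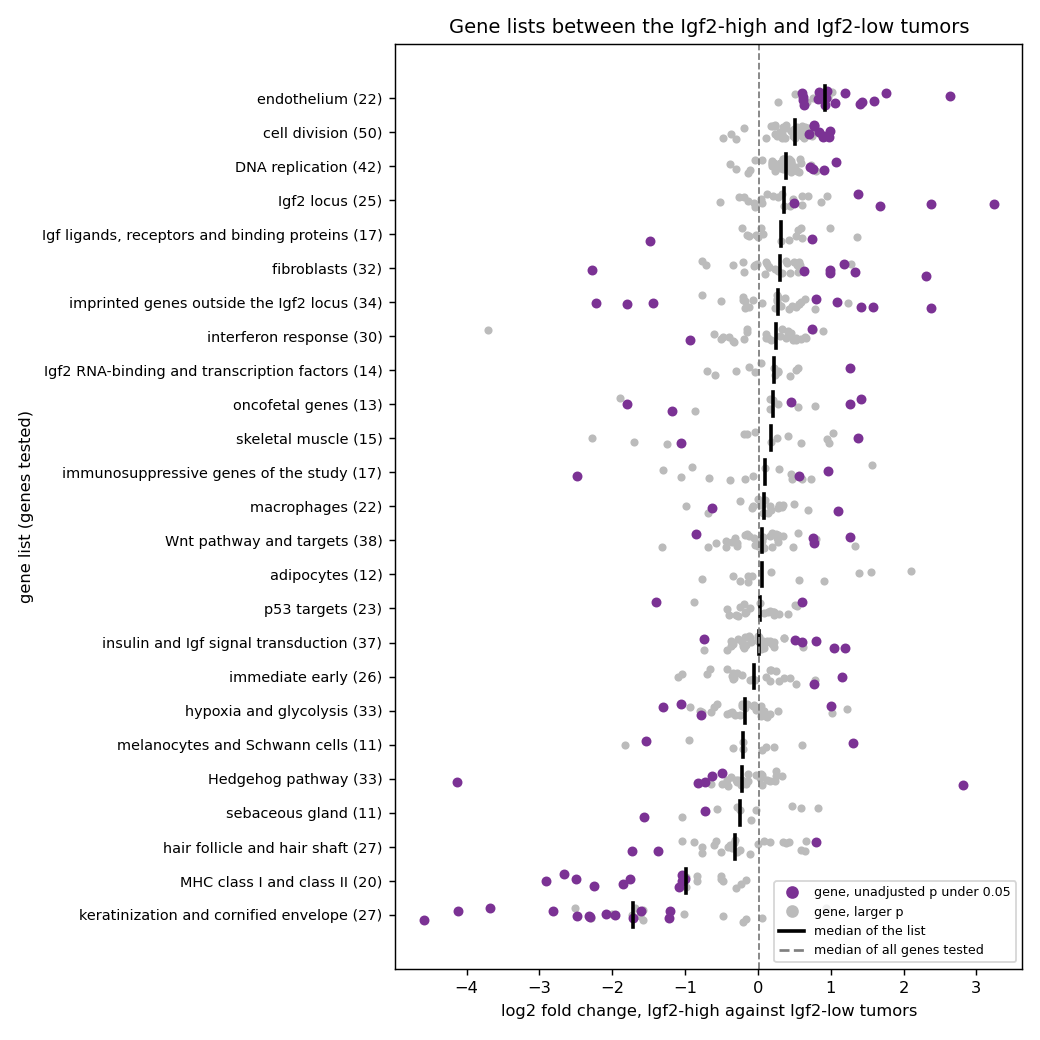
Log2 fold change (Igf2-high over Igf2-low, n = 4 each) of every tested gene of the lists with at least 10 tested genes, with the number tested in parentheses, a bar at each list's median and a dashed line at the median of all 14160 genes (0.02). Endothelium (median 0.92) lies at the top, and MHC (−0.99) and keratinization (−1.71) at the bottom.

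Genes of proliferation were mostly higher, with overlap between the groups. Of 50 tested genes of cell division 46 were higher, with a median of 0.51, yet 0 were free of overlap between the groups and 8 had an unadjusted p under 0.05 (16%, against 4.15% of all genes in this direction). Without GEM8 the median was 0.26 with 37 of 50 genes higher, without GEM6 it was 0.28 with 42 higher, and without GEM3 it was 0.33. Cenpa, the histone of the centromere, had 74.7, 32.6, 56.8 and 33.8 CPM in the Igf2-high and 27.0, 21.5, 34.3 and 19.5 CPM in the Igf2-low tumors (log2 fold change 1.00, SE 0.31, adjusted p = 0.504), and Plk1 and Cdk1, kinases of mitosis, differed by 0.91 and 0.83 (adjusted p = 0.52 and 0.553). Mki67 differed by 0.37 (SE 0.44) and the best expressed, Espl1 and Top2a, by −0.48 and 0.32. The median of the list relative to the 9 tumors was 0.66 in GEM3 and 0.74 in GEM8 but −0.38 in GEM1 and −0.12 in GEM5, and GEM6 stood lowest at −1.16. DNA replication genes had 37 of 42 higher with a median of 0.39, 4 of them with an unadjusted p under 0.05 (9.52%, against 4.15% of all genes in this direction). Among the 4 was Tk1, a kinase that salvages thymidine, with 132, 94.3, 103 and 47.7 CPM in the Igf2-high and 44.3, 31.0, 60.8 and 48.9 CPM in the Igf2-low tumors (log2 fold change 1.07, SE 0.32, adjusted p = 0.474). Without GEM8 the median of this list was 0.21 and without GEM6 0.26, with 1 gene at an unadjusted p under 0.05 in each. Its best expressed, Mcm7 and Pcna, differed by 0.24 and 0.45.

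**Figure D4:**
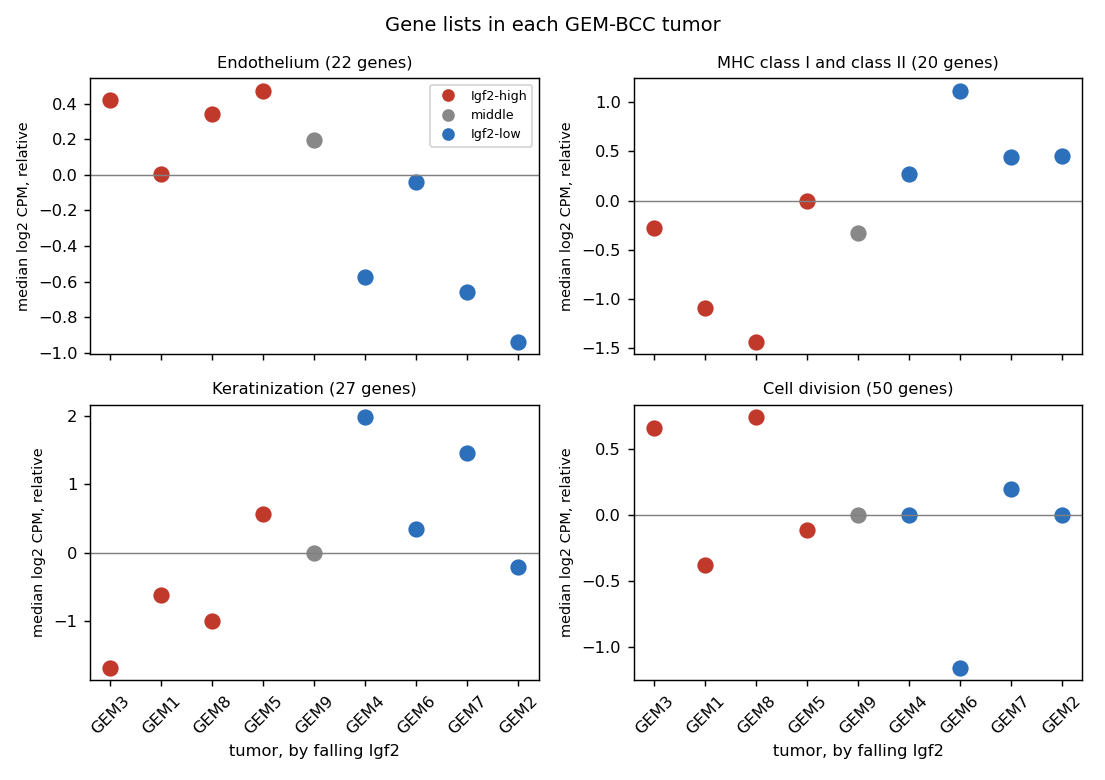
Median over the genes of 4 lists of log2 CPM relative to the gene's median of 9 tumors, in each GEM-BCC tumor, ordered by falling Igf2. Endothelial and MHC genes separate the Igf2-high from the Igf2-low tumors, by a narrow margin for endothelium (GEM1 and GEM6), whereas keratinization and cell division overlap.

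Of 36 listed genes of the Hedgehog pathway without Igf2, 33 were tested, with a median of −0.22, 12 higher and 21 lower, and 1 higher and 5 lower at an unadjusted p under 0.05 (18.2%, against 8.61% of all genes). With GEM9 added to the Igf2-high group there were 15 higher and 18 lower, with 1 of each at that threshold. Added to the Igf2-low group, GEM9 gave 9 higher and 24 lower, with 1 higher and 6 lower at that threshold. Leaving out single tumors moved the median from −0.35 (without GEM6) to −0.11 (without GEM7). Gli1, a target and effector of the pathway, had 364, 516, 796 and 852 CPM in the Igf2-high and 437, 611, 597 and 502 CPM in the Igf2-low tumors (log2 fold change 0.24, SE 0.27, adjusted p = 0.844). Ptch1 differed by 0.05 (SE 0.35), Hhip by −0.41 (SE 0.45), Gli2 by −0.50 (SE 0.25) and Smo, the transducer, by −0.29 (SE 0.20). The 5 lower genes included Foxc2, with 0.215, 0.479, 0.948 and 2.40 CPM in the Igf2-high and 2.05, 0.583, 19.8 and 48.0 CPM in the Igf2-low tumors (log2 fold change −4.13, SE 1.25, adjusted p = 0.474), Ccnd2 (−0.82) and Bcl2 (−0.72), and the higher one was Foxf1, with 0.705, 0.542, 0.853 and 2.87 CPM in the Igf2-high and 0.135, 0.368, 0.101 and 0.0712 CPM in the Igf2-low tumors (log2 fold change 2.82, SE 0.75, adjusted p = 0.472). Foxf1 passed the minimum count only through the Igf2-high and Foxc2 only through the Igf2-low tumors, so nothing is read from their differences. With at least 10 counts required in all 8 tumors, 30 genes of the list were tested, with 0 higher and 4 lower at an unadjusted p under 0.05. The best-expressed member beside Gli1, Ccnd1, differed by 0.25 (adjusted p = 0.785).

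The study set apart 8 genes related to BCC and 25 immunosuppressive genes. All 8 of the first were tested, with a median of 0.07 and 0 at an unadjusted p under 0.05. Of the second, 17 were tested, with a median of 0.10, and 3 had an unadjusted p under 0.05 (17.6%, against 8.61% of all genes). Tgfb2 had 3.65, 2.39, 2.21 and 9.79 CPM in the Igf2-high and 9.55, 3.16, 27.995 and 60.1 CPM in the Igf2-low tumors (log2 fold change −2.48, SE 0.82, adjusted p = 0.511, DESeq2 adjusted p = 0.0476), Tgfb1 had 135, 173, 115 and 106 CPM in the Igf2-high and 76.1, 105, 100.2 and 82.5 CPM in the Igf2-low tumors (log2 fold change 0.57, SE 0.22, adjusted p = 0.532), and Nos2 differed by 0.97 (adjusted p = 0.553). GEM7 and GEM2 held the highest Tgfb2 levels, and the replicate block called this gene (adjusted p = 0.00245). Arg1 differed by −1.05 with an SE of 1.32, and Ctnnb1 by −0.18 (adjusted p = 0.878).

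Fibroblast genes had a median of 0.31 over 32 genes, 23 higher and 9 lower, with 6 higher and 1 lower at an unadjusted p under 0.05 (21.9%, against 8.61% of all genes). Their sums of 35893 to 56548 CPM in the Igf2-high and 20413 to 69423 CPM in the Igf2-low tumors overlapped, and the collagens that make up most of them, Col1a1 and Col1a2, differed by 0.10 and −0.04 (SE 0.44 and 0.44). Thy1, a surface glycoprotein, had 391, 327, 239 and 226 CPM in the Igf2-high and 186, 193, 126 and 105 CPM in the Igf2-low tumors (log2 fold change 0.99, SE 0.29, adjusted p = 0.474). Pdgfrb, the receptor of pericytes and fibroblasts, had 91.8, 121, 114 and 138 CPM in the Igf2-high and 72.1, 96.1, 67.5 and 66.7 CPM in the Igf2-low tumors (log2 fold change 0.64, SE 0.20, adjusted p = 0.485), and Fbn1, a microfibril protein, differed by 0.98. The lower gene was Dpp4, with 2.45, 1.28, 9.96 and 13.6 CPM in the Igf2-high and 32.2, 65.9, 18.9 and 13.1 CPM in the Igf2-low tumors (log2 fold change −2.28, SE 0.74, adjusted p = 0.511, DESeq2 adjusted p = 0.0474). Without GEM5 the list median was 0.12 and without GEM6 it was 0.63.

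The lists of hypoxia, Wnt, immediate early, p53 and oncofetal genes had medians between −0.17 and 0.20. Of 13 oncofetal genes tested, 3 were higher and 2 lower at an unadjusted p under 0.05 (38.5%, against 8.61% of all genes). Mest, Peg3 and Igf2bp1, described above, are among them. In the other lists of this group the share was 7.69% to 12.1%. Hypoxia and glycolysis genes had a median of −0.17, but the glucose transporters went apart, with Slc2a3 at 22.4, 21.2, 18.2 and 30.7 CPM in the Igf2-high and 14.4, 11.8, 10.6 and 9.80 CPM in the Igf2-low tumors (log2 fold change 1.00, SE 0.24, adjusted p = 0.465, DESeq2 adjusted p = 0.0131) and Slc2a1 at 22.95, 19.2, 22.5 and 45.6 CPM in the Igf2-high and 48.7, 30.1, 39.8 and 111 CPM in the Igf2-low tumors (log2 fold change −1.05, SE 0.42, adjusted p = 0.549). Hk2 and Aldoc, enzymes of glycolysis, differed by −1.31 and −0.78, and the best expressed, Gapdh and Pkm, by 0.28 and −0.03. Myc, of the Wnt and immediate early lists, had 53.9, 54.5, 38.3 and 44.4 CPM in the Igf2-high and 25.6, 33.2, 27.96 and 28.1 CPM in the Igf2-low tumors (log2 fold change 0.76, SE 0.20, adjusted p = 0.472). Medians were 0.06 for Wnt genes, −0.06 for immediate early genes (Egr3 −0.34, Jund 0.29), 0.03 for p53 targets (Perp −1.41, Ei24 0.21) and 0.20 for oncofetal genes (Gpc3 0.16, Cd24a −1.18, the latter called with the replicate block at an adjusted p of 0.0221). Perp was at 2593 CPM in GEM4 and at no more than 654 in the other 7 tumors.

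The summed markers of other cells that an excised tumor can hold overlapped between the groups. Skeletal muscle had a median of 0.17 (Tpm2 0.26, Pygm −0.04), adipocytes of 0.05 (Fasn −0.14, Acaca −0.35), melanocytes and Schwann cells of −0.20 (Ngfr −0.20, Pmp22 0.60), with Tyr and Mlana at 0, and blood of 0.23 over 5 genes (Hba-a1 0.23, Itga2b 0.57). Neutrophil markers had a median of −0.08 over 7 genes (Lcn2 0.32, Mmp9 1.06) and a summed level of 11.8 to 28.8 CPM in the Igf2-high and 4.44 to 23.7 CPM in the Igf2-low tumors. Of 15 genes of muscle progenitors 4 were tested, with Pax7, Myf5, Myf6 and Myod1 at 0, and Chrna1 and Myl4 differed by 1.55 and 0.93. Lyz2 (0.16), Lck (−0.33), Cd4 (0.74) and Ifi27 (−0.19) were among the other best-expressed markers of macrophages, lymphocytes and interferon response.

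Some genes with small p-values were left out by the rule on level. Dnajb3 had 1.07, 0.319, 0.348 and 0.758 CPM in the Igf2-high and 4.61, 6.39, 7.13 and 5.27 CPM in the Igf2-low tumors (log2 fold change −3.18, SE 0.50, adjusted p = 0.289, DESeq2 adjusted p = 2.08e-07). It had the smallest p of the comparison. The potassium channels Kcna1 and Kcnd3 differed by −4.40 and −3.52 (adjusted p = 0.289 and 0.289), and Kcnd3 was called without GEM5 (adjusted p = 0.043) and with the replicate block (adjusted p = 0.00475). Fgf9, a growth factor, had 5.24, 2.17, 2.02 and 9.03 CPM in the Igf2-high and 0.101, 0.491, 0.203 and 0.356 CPM in the Igf2-low tumors (log2 fold change 3.99, SE 0.70, adjusted p = 0.289, DESeq2 adjusted p = 7.46e-06), and Pou3f4, a transcription factor, had 1.29, 1.34, 2.97 and 0.411 CPM in the Igf2-high and 0.0336, 0.0614, 0 and 0 CPM in the Igf2-low tumors. Fgf9 and Pou3f4 passed the minimum count only through the Igf2-high tumors and Kcna1 only through the Igf2-low tumors, where each was high. Nothing is read from how these genes separate the groups.

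Chromosome 4 stood apart from the other chromosomes. RefSeq (GRCm38.p6) places 915 of the tested genes on it, of which 788 were lower and 127 higher in the Igf2-high tumors, with a median log2 fold change of −0.43. At an unadjusted p under 0.05 there were 213 lower and 10 higher genes, 24.4% of the chromosome, against 5.1% to 9.93% of the genes of each of the other 19 chromosomes. Of all 632 genes lower at this threshold 33.7% lay on chromosome 4, which holds 6.46% of the genes tested, and of the 340 lower genes without overlap 37.9%. Off chromosome 4, 996 of 13245 genes had an unadjusted p under 0.05 (7.52%), 577 higher and 419 lower. This pattern was noticed in these data and not looked for beforehand.

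Low chromosome 4 levels belonged to 3 of the 4 Igf2-high tumors. Over 686 genes of chromosome 4 that averaged 3 or more in log2 CPM, the median level relative to the 9 tumors was −0.40 in GEM3, −0.43 in GEM1 and −0.49 in GEM8 on the log2 scale. It was 0.09 in GEM5 and 0.13 to 0.14 in the 4 Igf2-low tumors, with GEM9 between at −0.12. GEM5 thus lay beside the Igf2-low tumors and apart from its own group. When the chromosome was divided into 6 runs of 114 or 115 genes in order, each run was below 0 in GEM3, GEM1 and GEM8 (from −0.76 to −0.22) and above 0 in GEM5 and the Igf2-low tumors. Without GEM5 the median log2 fold change of the chromosome was −0.58 and without GEM1 −0.37. In the mice with a pair, which are part of the comparison, 680 of the 915 genes were lower in the Igf2-high tumor of both, with medians of −0.54 and −0.66. Of all 14160 genes tested, 4019 were lower in both.

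Chromosomes 1, 2, 8 and X each moved in a single tumor. Chromosome 1 had a median of −0.56 in GEM8, chromosome 2 of −0.26 in GEM3, chromosome X of −0.28 in GEM1 and chromosome 8 of 0.44 in GEM1, while in the other tumors these 4 chromosomes lay between −0.13 and 0.10. Smaller shifts touched more than 1 tumor on chromosome 18 (−0.20 in GEM9 and −0.16 in GEM1) and on chromosome 13. The latter had −0.15 in GEM1, −0.12 in GEM4, 0.11 in GEM3 and 0.16 in GEM9. Chromosome 7, which carries Igf2, ranged from −0.07 in GEM5 to 0.16 in GEM1. None of the keratinization and MHC genes tested is on chromosome 4, and 2 of the 22 endothelial markers are. DNA was not measured in these samples, and the part of chromosome 4 in the comparison was not tested.

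**Figure D5:**
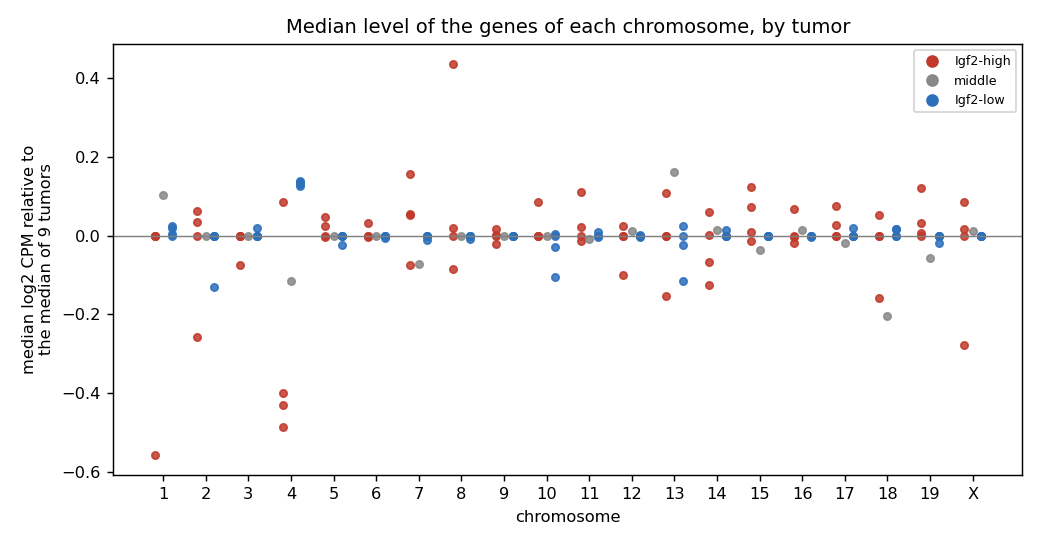
Median over the genes of each chromosome (genes averaging 3 or more in log2 CPM) of log2 CPM relative to the gene's median of 9 tumors, with 1 point per GEM-BCC tumor. On chromosome 4 GEM3, GEM1 and GEM8 lie at −0.49 to −0.40 and GEM5 with the Igf2-low tumors at 0.09 to 0.14, and the outlying points on chromosomes 1, 2, 8 and X each belong to 1 tumor.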

How the data were processed

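RNA of 13 tumors was sequenced, 1 poly(A) library each. The values deposited by the authors are RSEM expected counts per gene symbol, not rounded and not normalized, from reads aligned with Bowtie2 2.3.4.3 and quantified with RSEM 1.3.1 (GRCm39). Reads that fit several genes were shared out by RSEM, so close copies are uncertain. Of 21100 genes in the table, 18619 had a value in the GEM-BCC tumors. Total counts were 28075317 to 32629102 in the 8 tumors compared.

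The expected counts were rounded to whole numbers, and genes other than Igf2 with at least 10 counts in at least 4 of the 8 tumors (14160) were tested with edgeR 4.0.16 (TMM factors, quasi-likelihood test, Benjamini-Hochberg adjustment, R 4.3.3). All p-values of genes are from this test unless DESeq2 (1.42.0) or limma (3.58.1) is named, and a log2 fold change is Igf2-high over Igf2-low. Where a gene is said to differ by a number, that number is its log2 fold change. Two-sided tests were used throughout, and the fit treats the 8 tumors as independent although 2 mice gave a tumor to each group. CPM values were divided by total counts, and log2 CPM used TMM factors and a prior count of 2.

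The groups, the gene lists and the genes named by rule were chosen with earlier results of these data known. The rules named the 6 best-expressed genes of the Igf2 locus and Igf system lists, the 2 best-expressed of every other list, the 10 higher and 10 lower genes of smallest p, and the 5 genes most and the 5 least like Igf2 by correlation. All other genes were chosen after their values were seen. Some genes that the rules named are not reported here. Sequences, chromosomes and gene order are from RefSeq (GRCm38.p6), which is not the build of the counts. The scripts were tested on simulated counts. Other scalings, filters, tests, groupings of GEM9 and left-out tumors were tried as alternatives.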

Additional observations from a re-analysis of the deposited data

Results flagged for a closer look

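Single tumors that lay far from the rest of their group were looked for in 379 groups of values, on the log2 scale for genes, by the gap to the nearest other tumor as a share of the group's range. Of these, 15 (3.96%) exceeded Dixon's 95% critical value, and chance gives about 1 in 20.

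Among the Igf2-high tumors GEM3 was set apart most often. It had 27.9 CPM of Susd2 against 40.3 to 41.6 in the other Igf2-high tumors, 72.0 CPM of Egr3 against 159 to 192, and 2.42 CPM of Peg3 against 15.1 to 16.7. It was above the others in Ctnnb1, at 1892 CPM against 1292 to 1470.4, and in Egfl7, at 35.8 CPM against 26.2 to 29.6. GEM5 was low in both lymphatic genes Prox1 (0.379 CPM against 0.981 to 1.24) and Flt4 (5.02 against 9.99 to 12.3). GEM1 was low in Igf1 (8.49 CPM against 15.7 to 18.5) and Krt15 (447 against 721 to 819), and GEM8 in Igfbp4 (1904 CPM against 2656 to 2869).

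Among the Igf2-low tumors all 4 outlying values belonged to GEM6. It had 140.1 CPM of Tpm2 against 66.1 to 78.8, 19.9 CPM of Asprv1 against 87.3 to 108, 103 CPM of Ctcf against 124 to 129.9 and 361 CPM of Smo against 426 to 456. Over the 9 GEM-BCC tumors, GEM1 had the outlying correlation of level with GC content, a rho of 0.487 against −0.208 to 0.0425.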

How the results depend on the processing

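The comparison was fitted under 21 alternatives, 2 of them chosen after seeing the data. In edgeR 0 genes were called under the other scalings and filters, with GEM9 added to either group and with log2 Igf2 as a covariate. DESeq2 called 142 genes. Leaving out single tumors gave 0 to 21 called genes, all 21 without GEM5, with 358 to 790 higher and 414 to 1058 lower genes at an unadjusted p under 0.05. Limma voom with the mouse as a random effect called 0 genes and had 1014 higher and 1294 lower at an unadjusted p under 0.05. With the mouse as a replicate block in the 2 mice that gave a tumor to both groups (4 tumors, 1 residual degree of freedom), 196 genes were called, 50 higher and 146 lower, with 684 higher and 1019 lower at an unadjusted p under 0.05. This fit called 22 of the genes named by rule or by choice, DESeq2 50 and the fit without GEM5 6. The cause of these differences was not tested.

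List medians moved by more than their spread for the Igf system (0.10 with the GC trend removed), Wnt genes (−0.0921, likewise), sebaceous gland (−0.74 with the block), oncofetal genes (0.42, likewise) and adipocytes (0.40 without a filter). Leaving out single tumors gave medians of 0.80 to 1.17 for endothelium, 0.12 to 0.42 for the Igf system, 0.17 to 0.37 for imprinted genes, −0.0746 to 0.12 for BCC-related genes, −0.81 to −0.10 for sebaceous gland, −0.0782 to 1.17 for myogenic genes, −0.13 to 0.39 for adipocytes, −0.14 to 0.94 for macrophages, −0.33 to 0.76 for neutrophils, −0.28 to 0.47 for interferon response, −0.13 to 0.14 for p53 targets and −0.10 to 0.18 for Wnt genes. Of 187 named genes, the 101 with an unadjusted p under 0.05 kept their sign under all alternatives, and 33 of the other 86 did not. Depth limits the genes of few counts, such as lymphatic markers, and the lists with few tested genes.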
